A study of Mus musculus with 7 samples.

Results

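The core circadian clock was followed through 10 genes in whole pancreatic islets: the activators Arntl and Clock, the repressors Per1, Per2, Per3, Cry1 and Cry2, the nuclear receptors Nr1d1 and Nr1d2, and the output gene Dbp. They were chosen by name as the established parts of the clock, and all 10 were found among 34245 listed genes. The islets were from C57BL/6J mice aged 8 weeks, 2 controls and 5 knockouts (KO), and their polyA RNA was sequenced. In KO mice (Abca12 tm1d) the lipid transporter gene Abca12 had lost its floxed allele through Rip1-Cre, a Cre recombinase under an insulin promoter that acts in beta cells while whole islets hold other cells as well. Control 1 carried Rip1-Cre with intact Abca12, and Control 2 carried Rip1-Cre and was heterozygous for the floxed allele, so that every mouse carried the Cre transgene. KO 1 and KO 2 bear the letter f in their column headers and the other 5 libraries the letter m. No time of dissection is among the labels used here, and the clock transcripts were read as a check on it.

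The mammalian clock is a delayed feedback loop. The proteins encoded by Arntl (BMAL1) and Clock bind together to E-boxes and switch on the Per and Cry genes, whose products then enter the nucleus and stop that activity. A second loop runs through REV-ERB alpha and beta, encoded by Nr1d1 and Nr1d2, which compete with ROR activators at ROR elements and repress Arntl. DBP, itself under E-box control, drives output genes through D-boxes. In mouse peripheral tissues Per1, Per2, Per3, Cry2, Nr1d1, Nr1d2 and Dbp peak from day to evening, here called evening-phase, while Arntl, Clock and Cry1 peak from night to morning, here called morning-phase. Islets hold such a clock, and loss of Arntl in beta cells is known to impair insulin secretion in mice. Because the phase groups move in opposite directions over the day, mice dissected at different hours are expected to differ in evening-phase against morning-phase transcripts.

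The letters through which these loops act were searched for in the promoters, taken from RefSeq (GRCm38.p6) as windows from 250 bases before to 50 bases after a start. Of the 10 members 9 had a window, 13 windows in all. Both strands were searched, and the share of all 32851 windows that hold each motif is given beside the members. The E-box CACGTG was in windows of Per1 and Cry1 and in 7.15% of all windows, and its variant CACGTT was in Cry1, Cry2 and Nr1d1 and in 4.68%. The ROR element core TAGGTCA was in Arntl and in 2.61%, and its shorter form AGGTCA, which overlaps the core in Arntl, was in Arntl, Clock, Nr1d2 and Per1 and in 16.3%. The D-box TTATGTAA was in Per3, at 2 places, and in 0.938%. The D-box form TTACGTAA and the cAMP element TGACGTCA were in 0 of the 9 members, against 0.119% and 1.79% of all windows. A match is a description of the letters and not a measured site. No motif was found in the window of Dbp, and further windows of Arntl, Clock and Per1 held none either. The 4 windows printed were picked for the motifs they hold. The ROR element is in Arntl (chr7:113207261-113207560, plus strand). E-boxes are in Per1 (chr11:69098699-69098998, plus strand) and Cry1 (chr10:85185005-85185304, minus strand). Paired D-boxes are in Per3 (chr4:151044616-151044915, minus strand). The windows are written 5′ to 3′ on the strand of the gene, with the motif letters in capitals. In Per1 the capitals after the E-box are the shorter ROR form on the other strand (TGACCT), and in Cry1 the first capitals are the variant box on the other strand (AACGTG).
Arntl: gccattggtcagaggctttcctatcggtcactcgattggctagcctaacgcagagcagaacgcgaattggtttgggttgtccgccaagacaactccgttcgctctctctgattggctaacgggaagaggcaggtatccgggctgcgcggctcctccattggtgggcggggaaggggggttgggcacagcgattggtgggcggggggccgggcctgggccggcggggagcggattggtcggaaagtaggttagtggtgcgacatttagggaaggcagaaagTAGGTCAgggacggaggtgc
Per1: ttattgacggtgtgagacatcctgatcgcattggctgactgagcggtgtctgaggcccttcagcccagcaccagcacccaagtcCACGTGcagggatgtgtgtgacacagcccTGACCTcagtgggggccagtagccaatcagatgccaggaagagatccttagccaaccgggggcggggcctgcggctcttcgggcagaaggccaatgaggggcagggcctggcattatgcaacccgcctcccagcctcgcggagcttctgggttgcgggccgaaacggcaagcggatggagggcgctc
Cry1: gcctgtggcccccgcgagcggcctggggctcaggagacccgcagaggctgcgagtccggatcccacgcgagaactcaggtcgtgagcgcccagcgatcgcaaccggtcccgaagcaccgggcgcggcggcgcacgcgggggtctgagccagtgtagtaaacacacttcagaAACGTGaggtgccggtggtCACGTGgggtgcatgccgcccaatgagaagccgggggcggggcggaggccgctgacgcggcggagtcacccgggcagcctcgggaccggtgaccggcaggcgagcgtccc
Per3: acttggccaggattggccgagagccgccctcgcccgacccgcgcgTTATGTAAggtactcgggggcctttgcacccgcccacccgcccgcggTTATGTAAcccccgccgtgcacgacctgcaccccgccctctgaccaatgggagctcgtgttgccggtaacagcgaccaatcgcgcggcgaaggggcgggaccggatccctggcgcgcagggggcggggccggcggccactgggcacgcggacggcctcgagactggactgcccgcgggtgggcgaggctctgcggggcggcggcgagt

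Values are reads scaled to sequencing depth (RPM), recovered from the deposited log2 table. The libraries held 13335960 to 24590888 reads in listed genes, and the members had from 133 reads (Arntl in Control 1) to 2956 reads (Clock) in a library. Beta cell transcripts dominated, with Ins2 at 29617 to 44329 RPM. No library, control or KO, had any read of Abca12 (0 reads in all 7), so it checks no label, and 3 reads, the limit that a count of 0 allows, stand for 0.0696 to 0.125 RPM. Acinar markers summed to 411 to 825 RPM in controls and 1722 to 10843 RPM in KO libraries. Of these 12 of 12 tested markers were higher in every KO library than in both controls, against 6.75% of all tested genes. Endothelial markers summed to 176 to 203 RPM in controls and 107 to 160 RPM in KO libraries, and stellate and fibroblast markers to 37.7 and 127 RPM against 26.7 to 38.7 RPM. Leukocyte markers summed to 19.9 and 29.7 RPM in controls and 19.0 to 24.2 RPM in KO libraries, and Cd3e, a defining T cell marker, did not exceed 0.151 RPM. Alpha cell markers were higher in KO on average in 5 of 5, with sums of 3048 and 3195 RPM in controls and 2461 to 7131 RPM in KO libraries. Delta and PP cell markers were higher in 4 of 4, with sums of 1266 and 1552 RPM against 1677 to 2601 RPM. The part of these cell types in the clock values was not tested. In bulk islets fewer cells of a type and less RNA per cell cannot be told apart.

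Per kilobase of exon, the members fell into 3 levels. Nr1d2 had the highest mean level, 7.17 ± 1.06 RPM per kb (SD, n = 7), followed by Per1 at 5.85 ± 0.671, Clock at 5.48 ± 0.398, Nr1d1 at 5.32 ± 0.232 and Cry2 at 5.10 ± 0.366. The ranges of neighbours in that order overlapped, while the range of Nr1d2 lay wholly above those of Nr1d1 and Cry2. Cry1 at 3.83 ± 0.295, Dbp at 3.60 ± 0.612 and Per2 at 3.04 ± 0.532 RPM per kb came next, below the range of Cry2. Arntl at 0.984 ± 0.137 and Per3 at 0.725 ± 0.0928 RPM per kb were lowest, with ranges below that of Per2 and overlapping each other. The obligate partners Arntl and Clock thus stood at different levels per length.

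No clock member passed the test between KO and control islets. By limma with Benjamini-Hochberg adjustment over 16212 tested genes, 0 of 10 members had an adjusted p under 0.05, against 0.0617% of all tested genes (0.0432% higher in KO and 0.0185% lower). At an unadjusted p under 0.05 there was 1 member, Clock, against 10.8% of all genes. The KO libraries lay wholly to 1 side of both controls for 1 member, again Clock, against 15.2% of all genes (6.75% higher in KO and 8.41% lower). Of the members 5 were higher and 5 lower in KO on average, with a median log2 fold change of 0.00, beside -0.01 over all tested genes. All fold changes here are on the scale of log2(RPM + 1), which understates the change of low genes.

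Clock (chromosome 5, 76209868 to 76304792, minus strand) encodes the DNA-binding partner of BMAL1. It stood at 84.6 RPM in Control 1, 80.1 in Control 2, and 70.7, 74.0, 74.1, 74.8 and 68.6 RPM in KO 1 to KO 5. All 5 KO libraries lay below both controls, and the means were 82.3 ± 3.16 RPM (SD, n = 2) and 72.4 ± 2.69 RPM (SD, n = 5). The log2 fold change was -0.18 (SE 0.07), with an unadjusted p of 0.0166 and an adjusted p of 0.336 by limma. The difference did not pass over all genes, where 8.41% of genes lay wholly lower in KO.

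Arntl (chromosome 7, 113207465 to 113314126, plus strand) encodes BMAL1. Its level was 5.56 RPM in Control 1, 7.74 in Control 2, and 8.12, 6.57, 8.60, 7.36 and 7.84 RPM in KO 1 to KO 5. Control 1 was the lowest library and Control 2 lay inside the KO range. The means, 6.65 ± 1.55 RPM in controls and 7.70 ± 0.772 RPM in KO, gave a log2 fold change of 0.20 (SE 0.14, adjusted p = 0.674 by limma), which became -0.01 without Control 1. Gm45355, an antisense RNA over 118 exon bases of Arntl, had 0.0751 to 0.220 RPM.

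The Per genes encode the repressors that accumulate through the day, and Per1 and Per2 are also induced directly by cAMP and glucocorticoid signals. Per1 (chromosome 11, 69095217 to 69109960, plus strand) had 38.5 RPM in Control 1, 27.2 in Control 2, and 36.5, 33.4, 31.5, 33.0 and 30.3 RPM in KO 1 to KO 5. Per2 (chromosome 1, 91415982 to 91459324, minus strand) had 21.2, 12.4, 18.5, 20.7, 16.7, 19.4 and 15.6 RPM in the same order. For both genes the controls were the extreme libraries, Control 1 highest and Control 2 lowest, with every KO library between them. Per3 (chromosome 4, 151003652 to 151044665, minus strand) had 7.82 and 6.21 RPM in the controls and 8.08, 6.91, 7.04, 7.22 and 5.50 RPM in KO. Its groups overlapped, with KO 1 highest and KO 5 lowest. Fold changes on the log2 scale were 0.02 (SE 0.12) for Per1, 0.15 (SE 0.17) for Per2 and -0.01 (SE 0.15) for Per3, with adjusted p of 0.969, 0.806 and 0.985 by limma. Without Control 2 the Per1 and Per2 values became -0.22 and -0.21, and without Control 1 they became 0.26 and 0.51. The sign of both thus depended on which control was kept. All 9608 exon bases of Per3 lie within the span of Camta1 on the same strand. Camta1 had 4.71 to 6.78 RPM, or 66.8% to 96.6% of the Per3 level. Whether their exons overlap was not examined, so the Per3 value is uncertain.

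The cryptochromes bind the Per proteins and block BMAL1 and CLOCK. Cry1 (chromosome 10, 85131700 to 85185064, minus strand), the late-phase repressor, had 12.8 and 11.2 RPM in the controls and 12.9, 13.8, 11.9, 13.8 and 13.2 RPM in KO 1 to KO 5. Control 2 was lowest and Control 1 lay within the KO range. Its mean was 12.0 ± 1.16 RPM in controls and 13.1 ± 0.801 RPM in KO, a log2 fold change of 0.12 (SE 0.10, adjusted p = 0.711 by limma). Cry2 (chromosome 2, 92403646 to 92434043, minus strand) had 35.1 and 30.7 RPM in the controls and 32.4, 34.6, 33.6, 29.1 and 30.3 RPM in KO, with overlapping groups and a log2 fold change of -0.04 (SE 0.09, adjusted p = 0.917). D930015M05Rik lies on the opposite strand within Cry2 and had 5.17% to 6.07% of its level in every library. Whether the authors counted reads by strand is not given in the sources used here, so reads of these overlapping genes cannot be told apart.

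The REV-ERB genes form the second loop. Nr1d1 (chromosome 11, 98767932 to 98775333, minus strand) had 15.4 and 17.1 RPM in the controls and 16.1, 17.3, 15.7, 16.3 and 16.7 RPM in KO 1 to KO 5. It was the steadiest member, since the highest library was 1.13-fold above the lowest. Nr1d2 (chromosome 14, 18204054 to 18239127, minus strand) had 44.6 and 35.2 RPM in the controls and 44.3, 45.1, 35.7, 31.2 and 35.2 RPM in KO. Control 1, KO 1 and KO 2 were its high libraries, and the groups overlapped. The log2 fold changes were 0.02 (SE 0.09, adjusted p = 0.965) for Nr1d1 and -0.06 (SE 0.14, adjusted p = 0.918) for Nr1d2, by limma. Nr1d1 shares 488 exon bases with Thra on the opposite strand, which had 80.9% to 102% of its level, so the Nr1d1 value is uncertain.

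Dbp (chromosome 7, 45705088 to 45710203, plus strand) is often the clock transcript with the widest daily swing. It had 9.70 and 11.8 RPM in the controls and 12.8, 12.6, 9.78, 7.69 and 11.0 RPM in KO 1 to KO 5. Both extremes were KO libraries, KO 1 highest and KO 4 lowest. The means were 10.7 ± 1.45 RPM in controls and 10.8 ± 2.12 RPM in KO, a log2 fold change of -0.01 (SE 0.17, adjusted p = 0.993 by limma). Dbp shares 539 exon bases with Sphk2 on the opposite strand, which stood at 28.2 to 30.7 RPM, so its level is uncertain too.

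**Figure D1:**
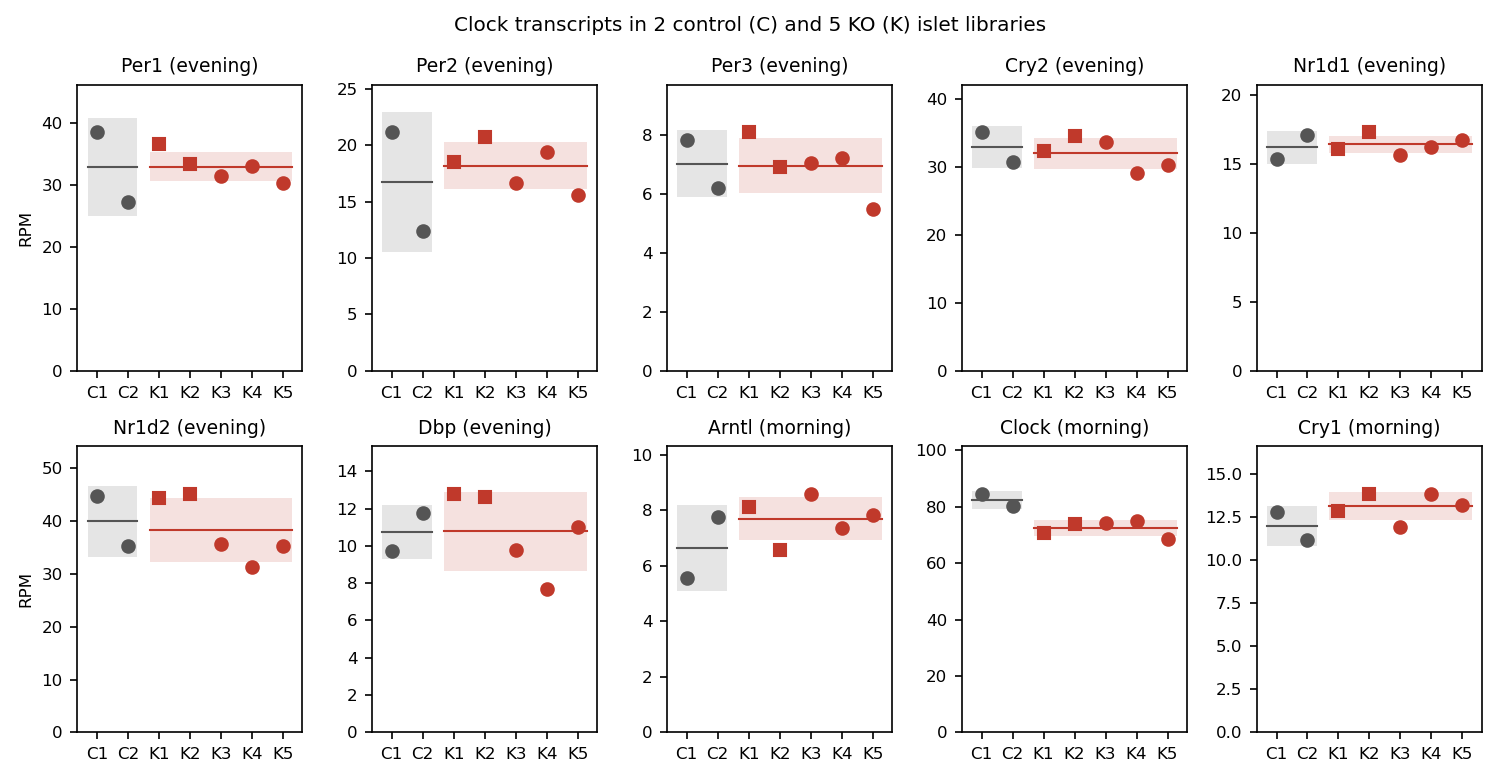
Level of each clock transcript in RPM (vertical axes from 0) in 2 control (C, grey) and 5 KO (K, red) libraries, with squares for the f letter and circles for the m letter, lines for group means and bands for the SD. Clock is the panel in which all 5 KO libraries (68.6 to 74.8 RPM) lie below both controls (80.1 and 84.6 RPM).

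Library-to-library spread of the members was mixed rather than uniformly wide. The SD of log2(RPM + 1) over the 7 libraries was 0.26 for Per2, 0.24 for Dbp, 0.21 for Nr1d2 and 0.19 for Arntl, at the 86.6th, 82.7th, 76.0th and 68.4th percentiles of all tested genes. It was 0.06 for Nr1d1, at the 3.30th percentile, and about 0.10 for Clock and Cry2 and 0.11 for Cry1. Of the 10 members 6 lay above the median SD of all tested genes, 0.147. A ratio of highest to lowest library of at least 1.5 was reached by Per2 (1.71), Dbp (1.66) and Arntl (1.55), against 41.8% of all tested genes. Nr1d1 is among the rhythmic genes of peripheral clocks, and its variance over libraries was 0.908 times that of counting alone. For Nr1d2 and Per2 the same ratio was 24.0 and 17.0, beside a median of 4.35 over all tested genes.

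**Figure D2:**
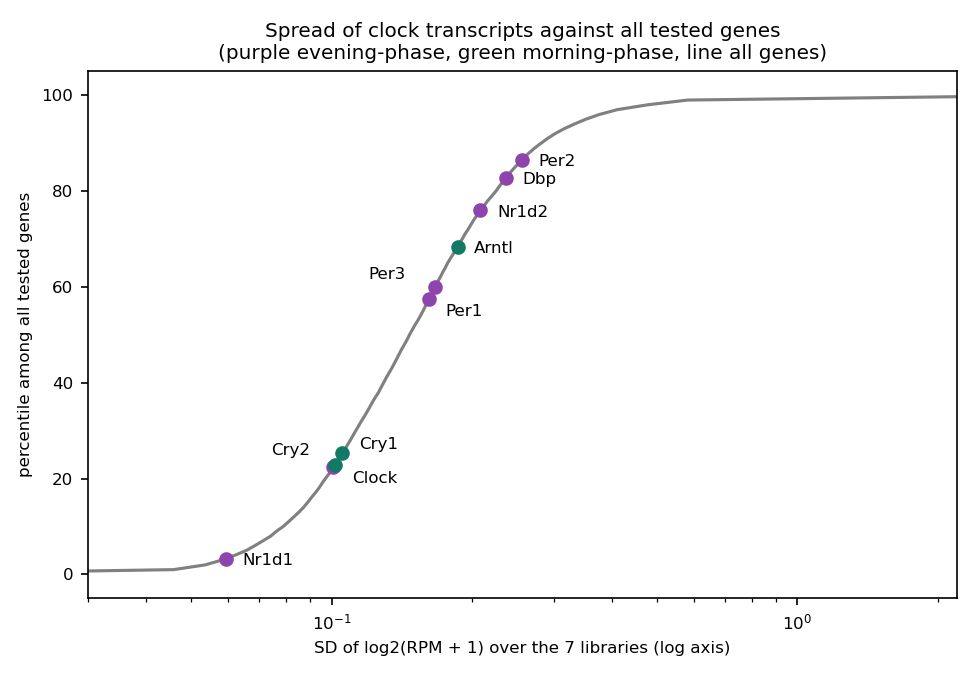
SD of log2(RPM + 1) over the 7 libraries (horizontal, log axis) against its percentile among all 16212 tested genes (vertical), with evening-phase members in purple and morning-phase members in green on the line of all genes. Per2 lies at the 86.6th percentile and Nr1d1 at the 3.30th.

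The evening-phase and morning-phase members were next set against each other in each library. The phase contrast is the mean of the 7 evening-phase members minus that of the 3 morning-phase members, each centred on its own mean of log2(RPM + 1). It was 0.17 in Control 1 and -0.12 in Control 2, and 0.10, 0.14, -0.07, -0.13 and -0.10 in KO 1 to KO 5. Both controls lay near the ends, close to the full range of 0.30, which corresponds to 1.23-fold. The KO mean was -0.01 ± 0.13 (SD, n = 5) and the control mean 0.03, a difference of -0.04 that is smaller than the gap of 0.28 between the controls. The controls are single mice of different genotype, so mouse and genotype cannot be told apart in that gap. No test was made, since the members were chosen and the score is a description. Most of the range came from the evening-phase members, whose mean spanned 0.25, while that of the morning-phase members spanned 0.09. Members partly cancelled within the morning-phase mean. Arntl alone ran from -0.35 in Control 1 to 0.20 in KO 3, and Clock stood at 0.17 in Control 1.

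Within the KO group, KO 1 and KO 2, which carry the letter f, had the higher contrasts, and the 3 libraries with the letter m had the lower ones. Of the 7 evening-phase members that enter the contrast, Per1, Nr1d2 and Dbp were higher in both libraries of letter f than in the other 3, and the other 4 members overlapped. Nr1d2 had 44.3 and 45.1 RPM in KO 1 and KO 2 against 31.2 to 35.7 RPM in the other KO libraries. Dbp had 12.8 and 12.6 RPM against 7.69 to 11.0 RPM. Per1 was parted only narrowly, at 33.4 RPM in KO 2 against 33.0 RPM in KO 4. The share of all tested genes parted in this way was not computed, so this count has nothing to be read against. Control 1, of letter m, had the highest contrast of all, and no control carries the letter f. Within the 5 libraries of letter m the KO minus control difference in the contrast was -0.13.

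**Figure D3:**
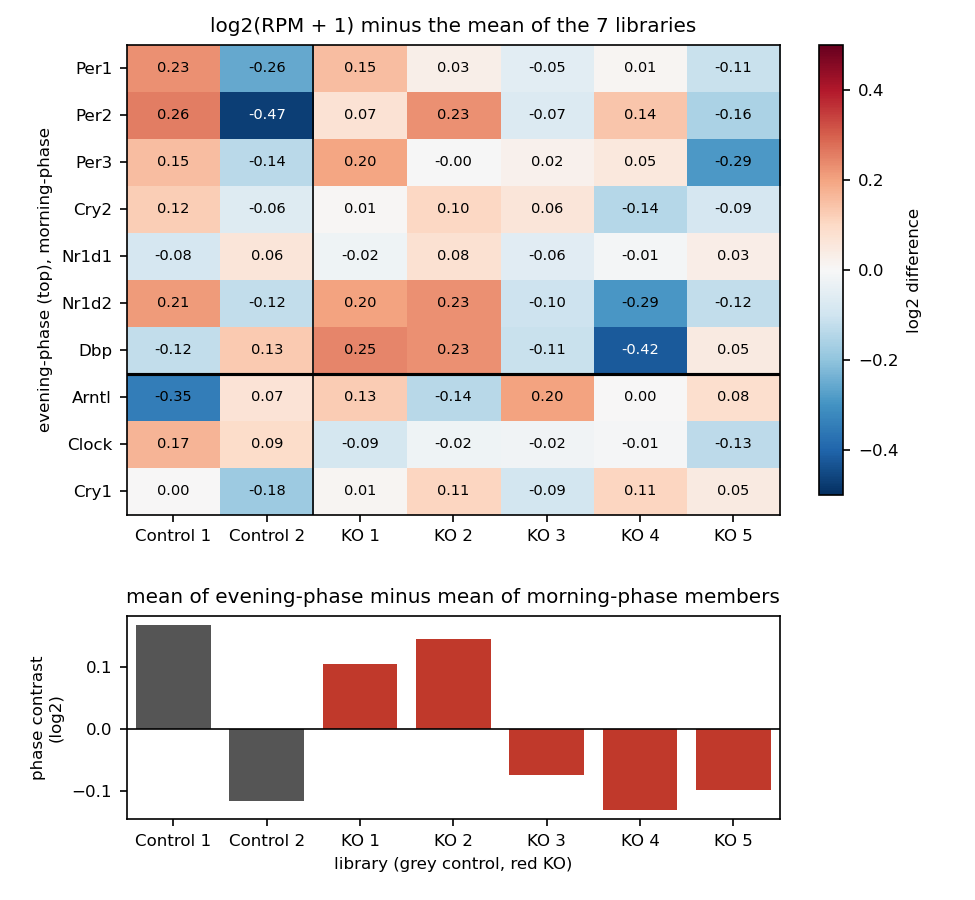
Top, log2(RPM + 1) of each member minus its mean over the 7 libraries (colour and printed value), evening-phase members above the line and morning-phase members below it; bottom, the phase contrast of each library (log2, grey control, red KO). Control 1, KO 1 and KO 2 lie above 0 and the other 4 libraries below it.

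The members did not all move as 2 opposed groups. The 7 libraries differed in depth and in the level of acinar markers. Across them Per1 and Per2 had r = 0.88, Per1 and Per3 0.81, and Cry2 and Nr1d2 0.82. Nr1d1 and Nr1d2, which peak at nearby times of day, had r = -0.10. Of the 21 pairs within the evening-phase group 13 were positive and 8 negative, with a median r of 0.48. All 3 pairs within the morning-phase group were negative, with a median of -0.38, and of the 21 pairs across the groups 12 were positive and 9 negative, with a median of 0.08.

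Arntl, the usual antiphase partner, was related to each other member in 9 correlations over 7 libraries, with two-sided exact permutation p-values. Pearson's r was -0.66 with Clock (rho -0.54), -0.59 with Per2 (rho -0.68), -0.55 with Per1 (rho -0.43) and -0.51 with Nr1d2 (rho -0.29). The raw exact p was 0.109 for Clock and 0.159 for Per2, and no relation passed, the lowest adjusted p being 0.495 for r and 0.715 for rho. Cry2 and Cry1 had r = -0.49 and -0.35, Per3 -0.30, Nr1d1 0.16 and Dbp 0.12. Without Control 1 and KO 2, the libraries farthest from the Arntl median, Per2 had r = -0.03 and Clock -0.20, and the sign turned for Per1 (0.16), Per3 (0.21), Cry2 (0.98), Nr1d1 (-0.60) and Nr1d2 (0.53), so these relations rest on those libraries. Each group, and each header letter, has fewer than 6 libraries, so no relation could be given within 1 of them. With the group means removed, r was -0.92 for Cry1, -0.90 for Per2, -0.68 for Per1 and -0.52 for Clock and Nr1d2. It was -0.46 for Cry2, -0.33 for Per3, 0.11 for Nr1d1 and 0.15 for Dbp. These centred values are given without a test and still include Control 1 and KO 2. Centring also places the 2 controls at equal distances on either side of 0.

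Control 2 was the lowest library for Per1, Per2 and Cry1, 3 of 10 members, against 17.8% of all tested genes. Per1 and Per2 respond to the same signals as immediate early genes, of which 8 of 13 tested also had their lowest value in Control 2. Immediate early genes summed to 191 RPM in Control 1, 125 RPM in Control 2 and 177 to 206 RPM in the KO libraries. Nr4a1, a nuclear receptor induced within minutes of stimulation, had 28.9 and 14.5 RPM in the controls and 32.2, 39.2, 32.1, 33.5 and 31.2 RPM in KO, a log2 fold change of 0.68 (SE 0.19) that did not pass (adjusted p = 0.199 by limma). Without Control 1 it was 1.15 and passed (adjusted p = 0.00199), and without Control 2 it was 0.21. Of the 13 genes 10 were higher and 3 lower in KO on average, 0 passed, and the median log2 fold change was 0.20, or 0.42 without Control 1 and 0.12 without Control 2. The part of this response in the Per1 and Per2 values was not tested. Glucocorticoid-responsive genes, among which Per1 is counted, had 6 of 10 higher and 4 lower in KO with a median log2 fold change of 0.02, and 1 rose past the threshold, Crispld2 (61.3 ± 1.36 RPM in controls, 93.0 ± 4.72 RPM in KO, log2 fold change 0.59, SE 0.07, adjusted p = 0.0132 by limma). Crispld2 no longer passed without Control 2 (adjusted p = 0.170 by limma) or with the acinar score as a covariate (0.416). Of 8 temperature-responsive genes 4 were higher and 4 lower, with 0 past the threshold. Over all tested genes 0.0617% passed.

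With all 7 libraries, the wider clock machinery had no gene past the threshold: 0 of 11 tested transcription factors, 0 of 10 kinases and ubiquitin ligases and 0 of 9 tested output genes. Over all tested genes 0.0617% passed, so counts of 0 in lists this short say little about the clock. The groups did not overlap for 3 of the 11, 2 of the 10 and 1 of the 9, against 15.2% of all tested genes. Of the transcription factors 7 were higher and 4 lower in KO, with a median log2 fold change of 0.04. Nfil3, the repressor that competes with DBP at D-boxes, had 22.1 and 16.5 RPM in the controls and 24.3, 26.8, 25.9, 28.9 and 23.7 RPM in KO. All KO libraries lay above both controls, with a log2 fold change of 0.42 (SE 0.11, adjusted p = 0.196 by limma). Without Control 1 the Nfil3 value was 0.62 and passed (adjusted p = 0.0440), and without Control 2 it was 0.22. Rora, an activator of Arntl at ROR elements, had 46.6 and 43.6 RPM in the controls and 39.3, 38.5, 39.2, 35.3 and 37.1 RPM in KO, all below both controls (log2 fold change -0.25, SE 0.07, adjusted p = 0.239). Rorb was not tested, at 0.0301 to 0.293 RPM.

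Among the kinases and ligases that set the stability of Per and Cry proteins, 1 was higher and 9 were lower in KO on average, with a median log2 fold change of -0.08, or -0.02 without Control 1 and -0.14 without Control 2. Fbxl21, a ubiquitin ligase subunit for cryptochromes, had 2.51 and 2.71 RPM in the controls and 2.14, 1.73, 1.63, 2.05 and 1.39 RPM in KO, all below both controls (log2 fold change -0.38, SE 0.15, adjusted p = 0.399 by limma). Prkaa1, a catalytic subunit of AMPK, which marks Cry1 for degradation, had 58.5 ± 7.05 RPM in controls and 51.8 ± 2.94 RPM in KO, with overlapping groups and an adjusted p of 0.500. Of the output genes 7 were higher and 2 lower, with a median log2 fold change of 0.04. Klf10, a transcription factor under clock control, had 12.0 ± 0.113 RPM in controls and 15.3 ± 1.79 RPM in KO, with every KO library above both controls (log2 fold change 0.31, SE 0.12, adjusted p = 0.367). Noct, the enzyme nocturnin, had 15.9 ± 0.397 and 17.5 ± 1.24 RPM, and Lonrf3 had 6.04 ± 0.915 and 5.96 ± 1.10 RPM. Avp was listed at 0 in every library, and Gys2 did not exceed 0.639 RPM.

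**Figure D4:**
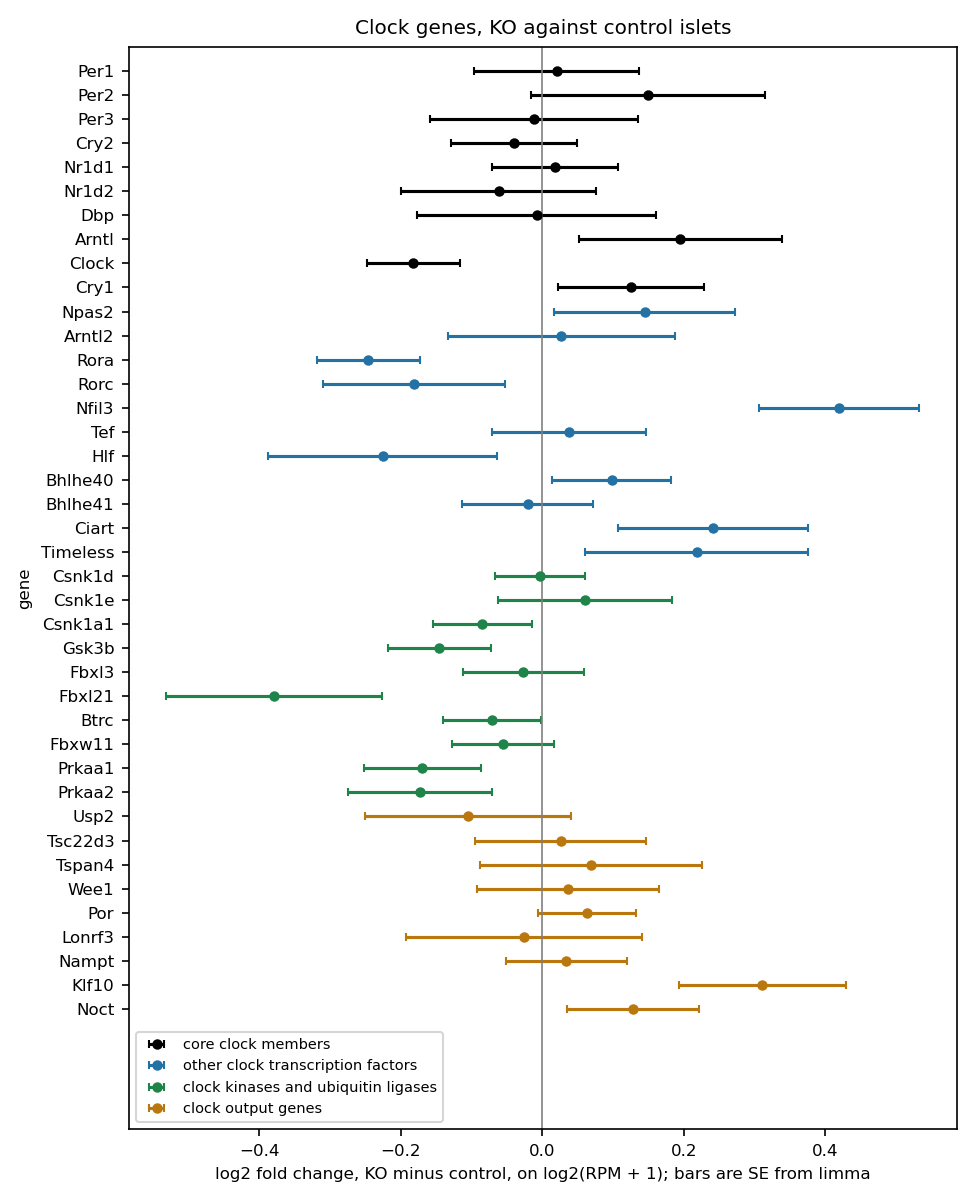
Log2 fold change of KO minus control on log2(RPM + 1) (horizontal) with the SE from limma (bars) for the 10 members (black) and the other clock transcription factors (blue), kinases and ligases (green) and output genes (orange). The largest values are 0.42 for Nfil3 and -0.38 for Fbxl21, and 0 of the genes shown passed the threshold, against 0.0617% of all tested genes.

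The genes whose levels ran most like Dbp and Arntl over the 7 libraries came from outside the clock lists. Among 14532 genes with at least 20 reads on average, the closest to Dbp were AW554918 (r = 0.98), Usf1 (0.96), 6030458C11Rik (0.95), Gm10550 (0.95) and Hspa2 (0.94), and 42 genes exceeded r = 0.9. Tef, which belongs to the same family as Dbp, ranked 2073 with r = 0.47. Among the closest to Arntl were Smg9 (0.97), Ctxn1 (0.95), Nectin2 (0.94) and Slc35g1 (0.94), and 31 genes exceeded r = 0.9. Ciart, a clock repressor, ranked 330 for Arntl with r = 0.72. Other clock transcription factors ranked with them had lower values. For Dbp, r was 0.09 with Ciart, -0.24 with Npas2 and -0.38 with Nfil3. For Arntl, r was 0.02 with Nfil3, -0.01 with Npas2 and -0.53 with Tef. With 7 libraries and so many genes these correlations are descriptions.

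The authors' deposited table of 136 selected genes held 0 of the 10 clock members.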

How the data were processed

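RNA of whole islets was made into polyA-selected libraries with a directional kit, per the labels' protocols, and libraries were grouped by title. HISAT2, DESeq2 and the build GRCm38 are named, per the submitters' processing notes. How reads were counted, with or without strand, and against which annotation is not given in the sources used here. Expression values were deposited by the authors on a log2 scale, and, taken out of the log, in each library 99.945% to 99.97% of values were whole multiples of a single step (within 0.02) with genes lacking reads set at 0.9 of it, so values were taken as log2 RPM. The steps imply 23923000 to 43117300 reads a library, with 54.6% to 57.0% in listed genes, and floors cover counting error only. The authors also deposited a table of 136 selected genes with group means on a log2 scale, a fold (ratio) and a corrected p-value, of which only the membership was used.

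Genes with at least 10 reads at the median depth (0.366 RPM) in at least 2 libraries were tested, 16212 in all. KO was fitted against control on log2(RPM + 1) by limma 3.58.1 (R 4.3.3) with an intensity trend, two-sided, with Benjamini-Hochberg adjustment over all tested genes and a threshold of 0.05. The scripts were tested on simulated data. Members and gene lists were chosen with earlier results of these data known. All members were named, and from other lists the genes past the threshold or with the smallest unadjusted p, and the widest spread in the clock lists. The genes named for likeness were taken from the 5 closest to Dbp and to Arntl, of which 1 is not reported here. Tef, Ciart and genes overlapping a member were chosen after their values were seen, and Npas2 and Nfil3 were ranked beside Tef and Ciart. Junb, in 2 rows, was left out, and Amy2b was not analysed here. Member coordinates are those of the deposited table. Litters and days of the mice are not in the labels, so a p-value reflects only how these 7 libraries vary. Correlations used scipy 1.17.1, and plots matplotlib 3.10.9.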

Additional observations from a re-analysis of the deposited data

Results flagged for a closer look

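Nr4a1, an immediate early gene, stood at 39.2 RPM in KO 2, with the next KO library at 33.5 RPM. The gap was 0.714 of the range of the 5 KO libraries, just above the critical value of 0.71. It was the 1 sample far from the others among 29 groups of 5 libraries examined, and chance gives about 1 in 20.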

How the results depend on the processing

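The count of clock members past the threshold was 0 in all 19 alternatives, and Clock and Cry1 kept their sign in each, with Clock between -0.25 and -0.14 on the log2 scale (adjusted p 0.313 to 0.681 by limma) and Cry1 between 0.03 without Control 2 and 0.22 without Control 1. The count over all genes, 10, became 20 with median-of-ratios scaling, 19 with upper-quartile scaling, 4 with no filter, 3 with the header letter as a covariate, 47 without KO 2 and KO 3, and 0 after adjusting for the acinar score (1167 at an unadjusted p under 0.05). The acinar score lies higher in every KO library, so it takes out part of the group difference. Leaving out each library gave 2 to 127, the highest without Control 1 and the lowest without Control 2 or KO 4, with 3 without KO 3. With the replicate number as a block the count was 11, and the log2 fold changes of Per3, Cry2, Nr1d2 and Dbp turned to 0.0885, 0.0263, 0.17 and 0.23, and Crispld2 no longer passed (adjusted p = 0.126 by limma). Same-numbered libraries deviated from their group means with correlations of -0.10 and -0.24, which gave no sign of pairing. With 2 controls their deviations mirror each other, so these values cannot settle whether the numbers pair mice.

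Other log2 fold changes also changed sign. Per1 turned to -0.0363 with the header letter as a covariate or in the 5 libraries of letter m, and to -0.0646 with the acinar score, which turned Per2 to -0.0489. Dbp turned to 0.0005 with upper-quartile scaling. Lonrf3 turned to 0.0208 with voom and to 0.12 with the header letter or in letter m alone. Leaving out each library gave -0.22 to 0.26 for Per1, -0.21 to 0.51 for Per2, -0.16 to 0.13 for Per3, -0.13 to 0.0532 for Cry2, -0.0124 to 0.40 for Arntl, -0.0542 to 0.0886 for Nr1d1, -0.23 to 0.11 for Nr1d2 and -0.13 to 0.12 for Dbp. Lonrf3 turned to 0.11 without Control 1, 0.06 without KO 1 and 0.0003 without KO 2.

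The median log2 fold change of the members, 0.00, was -0.10 with the acinar score, 0.12 with the block and -0.15 without Control 2. Over all lists 37 recomputed medians moved and 286 did not, taking as moved a shift beyond the SD of the median between KO libraries. The phase contrast difference of -0.04 ran from -0.18 without Control 2 to 0.11 without Control 1, and was -0.21 with Dbp, Nr1d1, Nr1d2 and Per3 set against Arntl alone. The correlation with Arntl turned to 0.16 for Per1, 0.21 for Per3, 0.98 for Cry2, -0.60 for Nr1d1 and 0.53 for Nr1d2 without the 2 libraries farthest from its median. The causes were not tested. With 2 controls, which also differ in genotype, the SE of 0.07 to 0.17 limits what these libraries can show for the members.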
